A study of Rattus norvegicus with 20 samples.

Results

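Liver messenger RNA was compared between rats on a diet with a small share of a high-isoflavone soybean and rats on a diet with a larger share of a conventional soybean. The 2 diets differ in both the cultivar and the amount of soybean. The comparison takes 10 of the 20 arrays of the study, 5 per diet, and every one of the 27702 probe sets with values that is not an array control. In the 3:1 diet, casein and the high-isoflavone cultivar Yukipirika supplied protein in 3 parts to 1, so that soybean gave 25% of the 2 proteins. In the conventional diet, casein and the cultivar Fukuyutaka supplied equal parts, 50% each. The remaining diets of the study are used for levels beside these: a 1:1 diet of casein and Yukipirika, and a diet with casein at 200 g per kg and no soybean. All animals were male Sprague-Dawley rats obtained at 4 weeks of age. They were housed singly, spent 5 days on a non-purified diet and then 21 days on 1 of the 4 diets. The labels give 7 rats each for the 3:1 and the conventional diets, and 5 of each, chosen for average food intake, were hybridised, 1 rat per array. The array type reads the 3′ end of messenger RNAs.

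Isoflavones are plant phenols that bind estrogen receptors and, at higher amounts, act on other nuclear receptors of the liver. Soybean protein itself, compared with casein, is known in rats for lower blood cholesterol and lower hepatic fat synthesis. In the liver, fatty acid and sterol synthesis are switched on by the SREBP transcription factors, and fatty acid oxidation by PPARα. The study asks what soybeans and their isoflavones do to liver messenger RNAs. This pair of diets sets a low share of the isoflavone-rich bean against a higher share of the ordinary one.

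Whole arrays differed slightly between the diets. The median of the array averaged 2.48 ± 0.0365 log2 units on the 3:1 diet and 2.53 ± 0.021 on the conventional diet (SD, n = 5 each), a difference of -0.06 with an exact permutation p of 0.0238 over 252 splits, two-sided. The 75th percentile was lower on every 3:1 array than on any conventional array, by 0.0511 on average (exact permutation p = 0.00794, the smallest that 252 splits allow). The 3′ to 5′ signal ratio of GAPDH, a mark of RNA integrity, was 0.929 ± 0.0528 log2 units on the 3:1 diet and 0.822 ± 0.0813 on the conventional diet (exact permutation p = 0.0397), and that of beta-actin was 1.61 ± 0.304 and 1.60 ± 0.202 (p = 0.968, exact). The part of these shifts in single-gene differences was not tested beyond the rescaled settings given below. Hepatocyte markers were high, as the tissue label would have it: albumin stood at 10.2 log2 units on both diets, and the 7 measured markers differed by -0.07 to 1.07. None of the markers of the other 9 cell types passed the test. All 10 pancreas markers were lower on the 3:1 diet, with a median difference of -0.20 and a mean level of 2.64 ± 0.0635 against 2.84 ± 0.0854 on the conventional diet, and their part in any result below was not tested. These levels lay near the array medians of 2.48 and 2.53. Of 11 lymphocyte markers 9 were also lower, with a median difference of -0.17, while 7 of 9 endothelial markers were higher. Of 11 macrophage markers 7 were lower, with a median difference of -0.02. Conventional replicate 3 was the highest of its diet in each of these 11, and their part in any result below was not tested. In whole liver, fewer cells of a type and less RNA per cell cannot be told apart. Conventional replicate 3 stood apart in several liver genes and 3:1 replicate 4 in the genes of fat synthesis. Differences of single named genes that moved by over 1.5 times without either are therefore also given without it.

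Of the 27702 probe sets, 1 passed an adjusted p under 0.05, which is 0.00361% of those tested, and its level was lower on the 3:1 diet. It reads Cox7b2, a second copy of subunit 7b of cytochrome c oxidase, the last enzyme of the respiratory chain, known in mammals mainly from testis. Cox7b2 fell by 0.67 on the log2 scale (SE 0.0977, 95% interval -0.87 to -0.47, adjusted p = 0.0241), a ratio of 0.629. The levels on the 3:1 diet were 4.69, 4.76, 4.48, 4.42 and 4.22, and on the conventional diet 5.19, 5.09, 5.14, 5.31 and 5.19. No 3:1 rat reached the lowest conventional rat. The call was not stable: it ended in 11 of 29 alternative settings, with adjusted p between 0.00885 and 0.303, and the difference stayed between -0.73 and -0.60 log2 units in all 29. Leaving out conventional replicate 1, 2, 4 or 5, or 3:1 replicate 3, 4 or 5, ended it, with adjusted p of 0.0510 to 0.118. A fit on the 10 compared arrays alone gave 0.303.

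Of the remaining diets, Cox7b2 was low on the 1:1 high-isoflavone diet and high on casein. The parts of cultivar and share in the call were not tested. The 1:1 high-isoflavone rats had 4.28, 4.15, 4.41, 4.16 and 4.37, and the casein rats 5.17, 5.43, 5.38, 5.40 and 5.20. The rats of both diets with Yukipirika were below every rat of the diets without it. At equal share, the 1:1 high-isoflavone diet differed from the conventional diet by -0.91 (adjusted p = 0.000168, in a comparison where 0.0758% of probe sets were called), a value that uses the same conventional rats. Between the 3:1 and the 1:1 high-isoflavone diets the difference was 0.24 (SE 0.0977, adjusted p = 0.636).

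**Figure D1:**
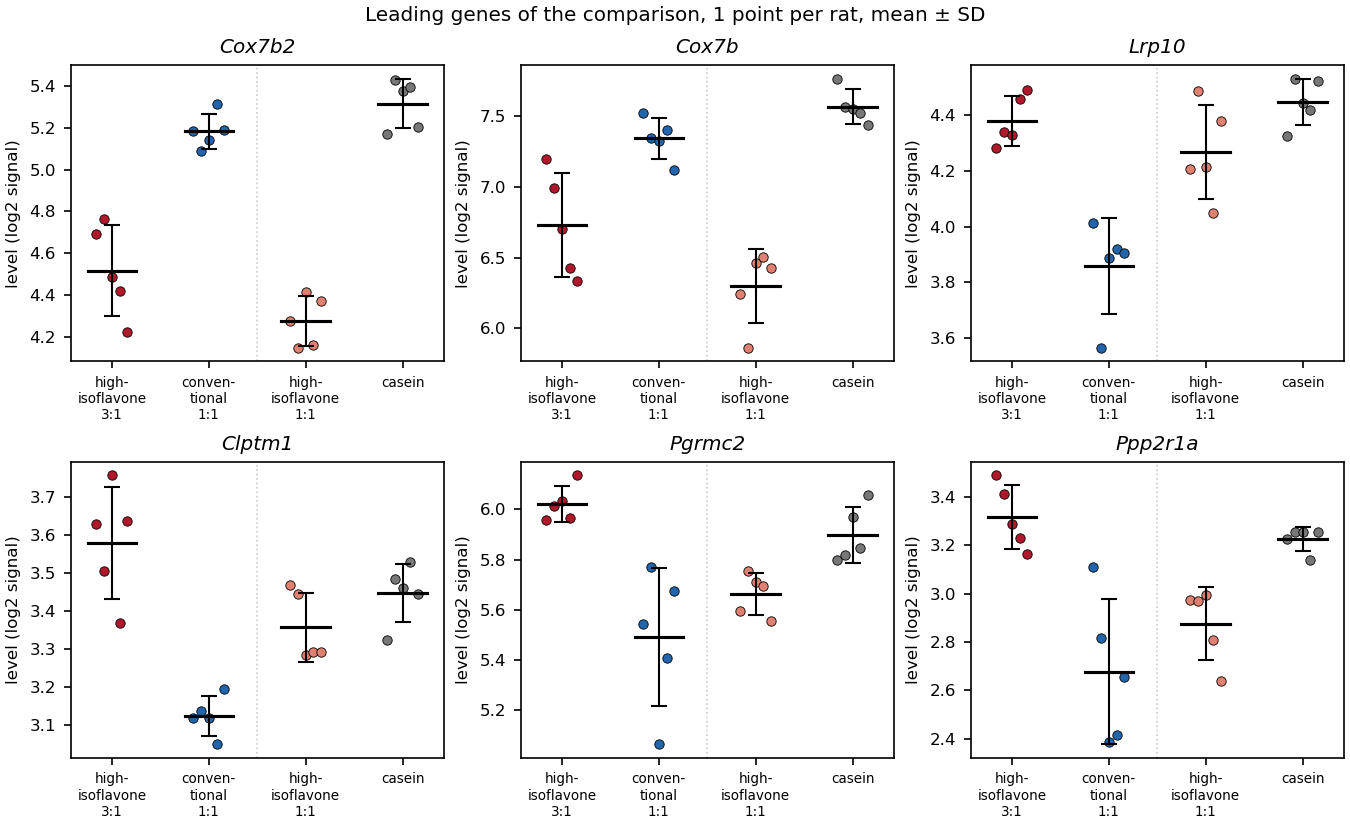
Level in log2 signal of 6 leading genes in each of 20 rats, by diet; points are rats, horizontal bars means and whiskers SD (n = 5 per diet). Cox7b2 on the 3:1 diet sits between 4.22 and 4.76, under all conventional rats, while Lrp10, Clptm1, Pgrmc2 and Ppp2r1a sit above all conventional rats without passing the adjusted test.

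Cox7b, the subunit that the liver normally uses, gave a difference of -0.61 (SE 0.143, adjusted p = 0.194). Its levels were 7.20, 6.99, 6.70, 6.43 and 6.33 on the 3:1 diet and 7.53, 7.35, 7.32, 7.40 and 7.12 on the conventional diet, so that 1 rat of the 3:1 diet lay above the lowest conventional rat. At 1:1 the high-isoflavone rats averaged 6.30 ± 0.264 and casein rats 7.57 ± 0.121. The 2 genes are copies of each other, and whether the Cox7b2 probe set also binds Cox7b messages was not tested, so the gene behind the call is uncertain. Cox7c, another small subunit of the same enzyme, differed by -0.28 (SE 0.114, adjusted p = 0.386). Across 37 measured genes of the respiratory chain and ATP synthase the median difference was -0.03 log2 units, against -0.03 over all 13468 genes, and none but Cox7c had an unadjusted p under 0.05. The list median was -0.06 without conventional replicate 3 and -0.01 without 3:1 replicate 4. That list holds neither Cox7b nor Cox7b2.

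Windows around the transcription starts of Cox7b2 and Cox7b are shown because these genes carry the call and its uncertainty, and those of Sc5d and Pnpla3 because they belong to the sterol and fat genes described further on. Each runs from 250 bases before to 50 after the start on the gene's own strand (RefSeq, GRCr8). Capitals mark CCAAT or its reverse complement ATTGG, the box bound by the factor NF-Y, which acts together with SREBP at many lipid genes. The windows are Cox7b2 at chr14:37046831-37047130 (+), Cox7b at chrX:75148786-75149085 (+), Sc5d at chr8:51538228-51538527 (-) and Pnpla3 at chr7:117173278-117173577 (+).
Cox7b2: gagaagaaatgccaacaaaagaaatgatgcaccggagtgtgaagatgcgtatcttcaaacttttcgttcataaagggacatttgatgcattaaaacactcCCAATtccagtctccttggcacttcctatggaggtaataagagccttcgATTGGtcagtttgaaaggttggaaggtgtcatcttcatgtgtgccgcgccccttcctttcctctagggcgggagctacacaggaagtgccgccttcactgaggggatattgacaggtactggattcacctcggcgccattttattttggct
Cox7b: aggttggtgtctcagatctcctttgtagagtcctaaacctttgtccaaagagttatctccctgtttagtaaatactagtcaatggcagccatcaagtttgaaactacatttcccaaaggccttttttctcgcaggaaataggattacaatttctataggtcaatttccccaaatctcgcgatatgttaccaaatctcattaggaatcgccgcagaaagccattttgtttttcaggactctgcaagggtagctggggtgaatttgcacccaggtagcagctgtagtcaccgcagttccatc
Sc5d: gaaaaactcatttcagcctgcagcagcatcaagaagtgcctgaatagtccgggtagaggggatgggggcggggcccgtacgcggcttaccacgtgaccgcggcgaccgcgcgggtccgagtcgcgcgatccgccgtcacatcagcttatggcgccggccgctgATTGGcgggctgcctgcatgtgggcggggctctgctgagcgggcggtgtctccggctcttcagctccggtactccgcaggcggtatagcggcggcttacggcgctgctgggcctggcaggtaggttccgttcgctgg
Pnpla3: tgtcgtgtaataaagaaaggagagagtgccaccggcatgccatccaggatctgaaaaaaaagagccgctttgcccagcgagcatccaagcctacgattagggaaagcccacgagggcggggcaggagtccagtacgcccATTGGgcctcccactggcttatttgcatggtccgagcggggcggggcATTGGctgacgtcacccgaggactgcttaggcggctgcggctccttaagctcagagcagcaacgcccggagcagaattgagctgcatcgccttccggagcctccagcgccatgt
Cox7b2 and Pnpla3 held the box 2 times, Sc5d 1 time and Cox7b 0 times. Among all 33469 windows, 37.5% held it on either strand. It was present in 13 of 16 matched windows of the cholesterol list, in 14 of 22 of the lipogenesis list, in 7 of 22 of the fatty acid oxidation list and in 17 of 17 of the endoplasmic reticulum stress list. The box was thus not particular to lipid lists. The cell cycle list held it in 18 of 25 windows, the estrogen list in 9 of 13 and the pericentral list in 7 of 11. For ribosomal proteins the count was 7 of 28. These are matches of letters, and no binding was measured.

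At an unadjusted p under 0.05 stood 1138 probe sets higher on the 3:1 diet (4.11% of those tested) and 1862 lower (6.72%). Counting each gene once, by its brightest probe set, 683 genes were higher (5.07%) and 811 lower (6.02%). The 5 rats of the 3:1 diet all lay above the 5 conventional rats in 248 probe sets (0.895%) and 157 genes (1.17%), and all below in 328 probe sets (1.18%) and 143 genes (1.06%). The balance of directions depended on scaling: 37.9% of the probe sets with p under 0.05 were higher as deposited, 59.7% after quantile normalization and 64.9% after centring and scaling each array. The median difference over all probe sets was -0.04 as deposited, 0.00113 after quantile normalization and 0.0111 after scaling. The 95% interval of a gene's difference had a median reach of 0.286 log2 units to each side, a factor of 1.22, and for 96.6% of genes the interval lay within a 2-fold difference in both directions.

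**Figure D2:**
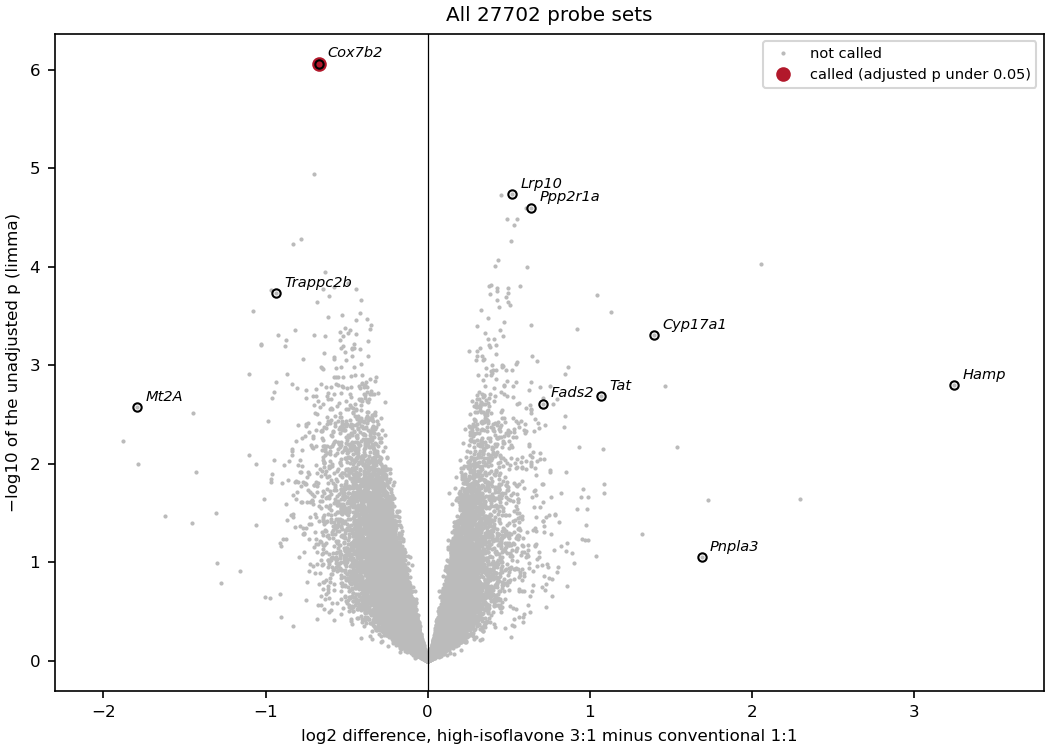
Log2 difference (3:1 minus conventional, x axis) against −log10 of the unadjusted limma p (y axis) for 27702 probe sets; open circles mark named genes. Cox7b2 at -0.67 is the 1 called probe set, and Hamp at 3.25 and Mt2A at -1.79 lie farthest out with larger errors.

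None of the genes that led the higher side passed the test on the values as deposited with all arrays fitted. Lrp10, a receptor of the LDL receptor family, had 4.28, 4.34, 4.33, 4.46 and 4.49 on the 3:1 diet and 4.01, 3.56, 3.89, 3.92 and 3.90 on the conventional diet. The groups did not overlap and differed by 0.52 (SE 0.0951, adjusted p = 0.114). Clptm1, a membrane protein, had 3.63, 3.51, 3.76, 3.37 and 3.64 against 3.12, 3.14, 3.12, 3.05 and 3.20 on the conventional diet, a difference of 0.45 (SE 0.083, adjusted p = 0.114). Pgrmc2, a membrane protein that handles heme, had 5.96, 6.02, 6.04, 5.97 and 6.14 against 5.54, 5.77, 5.06, 5.41 and 5.67 in conventional rats. Its difference was 0.53 (SE 0.102, adjusted p = 0.117), and its other probe sets gave 0.60 and 0.55. After centring and scaling, 13 probe sets were called and 11 of them were higher. After quantile normalization 9 were called, of which 7 were higher. Lrp10, Clptm1, Pitpnb, Ppp1r11, Ambra1, Ppp2r1a and Pgrmc2 were called in both rescalings, Pgrmc2 through another probe set after quantile normalization.

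Among the other leading genes on this side, Ppp2r1a, the scaffold subunit of protein phosphatase 2A, had 3.49, 3.41, 3.29, 3.23 and 3.16 on the 3:1 diet and 3.11, 2.81, 2.39, 2.42 and 2.66 on the conventional diet, a difference of 0.64 (SE 0.119, adjusted p = 0.114). Its second probe set differed by -0.04. Without conventional replicate 1, Ppp2r1a differed by 0.75 and was called (adjusted p = 0.0242), the 1 call of that fit. Ppp1r11, an inhibitor of protein phosphatase 1, differed by 0.51 (adjusted p = 0.137), and Pitpnb, which carries phosphatidylinositol between membranes, by 0.49 (adjusted p = 0.114). Neither overlapped between the diets. Ambra1, a regulator of autophagy, differed by 0.61 (adjusted p = 0.114), with 2.20 to 2.43 in 3:1 rats and 1.54 to 1.88 in conventional rats, but its other, dimmer probe set gave -0.55. Actr1a of the dynactin motor complex, the small acidic protein Ptms, the nucleotidase Cant1, the chemokine Ccl9 and the kinase Stk24 differed by 0.39 to 0.62 without overlap, each with an adjusted p of 0.164. Casein rats averaged 4.45 for Lrp10 and 3.23 for Ppp2r1a, near the 3:1 means of 4.38 and 3.32 and above the conventional means of 3.86 and 2.68.

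On the lower side, Trappc2b, a subunit of the TRAPP vesicle tethering complex, followed Cox7b2 in its diet pattern. Its levels were 4.08, 3.85, 2.99, 3.48 and 2.74 on the 3:1 diet and 4.26, 4.53, 4.58, 4.21 and 4.24 on the conventional diet, with no overlap and a difference of -0.94 (SE 0.207, adjusted p = 0.164). The 1:1 high-isoflavone rats averaged 3.04 ± 0.372 and the casein rats 4.54 ± 0.18. Hs6st2, which sulfates heparan chains, differed by -0.61 (SE 0.135, adjusted p = 0.164), with 3.66 to 4.12 in 3:1 rats and 4.13 to 4.71 in conventional rats. Its means were 3.76 on the 1:1 high-isoflavone diet and 4.23 on casein. Cryaa, a crystallin, and Abca2, a lipid transporter, showed another order: they differed by -0.49 (adjusted p = 0.164) and -0.35 (adjusted p = 0.204), and casein means of 2.52 and 2.91 lay near the 3:1 means of 2.70 and 2.89. Conventional means were 3.20 and 3.24. The other leading genes on this side were Snapc4, Lrrc8c, Ankib1, Fxyd3, Muc13 and Ros1, with differences of -0.82 to -0.38 and adjusted p of 0.164 to 0.204. The second probe sets of Lrrc8c and Ankib1 gave 0.0181 and 0.0146, so those differences rested on 1 of 2 probe sets. Snapc4 differed by -0.65, and its second, dimmer probe set gave -0.20 (SE 0.268).

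Gene lists of liver pathways were next set beside the median of all genes, -0.03, of which 44.0% lay above 0. No list member passed the adjusted test. The lists of cholesterol synthesis and uptake, lipogenesis, fatty acid oxidation and apolipoproteins had the highest medians, at 0.24, 0.23, 0.16 and 0.13. The pericentral, male-predominant and interferon lists had the lowest, at -0.19, -0.12 and -0.12. Over omissions of 1 array the interferon median stayed between -0.25 and -0.05. The pericentral and male-predominant medians did not stay below 0. The pericentral median was 0.0203 without conventional replicate 3, with 6 of 11 genes above 0. The male-predominant median was 0.000886 without 3:1 replicate 5 and -0.03 without conventional replicate 3. After centring and scaling the median of all genes moved to 0.0296, and the medians of the same 4 lipid lists were 0.30, 0.29, 0.22 and 0.19, which left their order relative to all genes as it was.

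**Figure D3:**
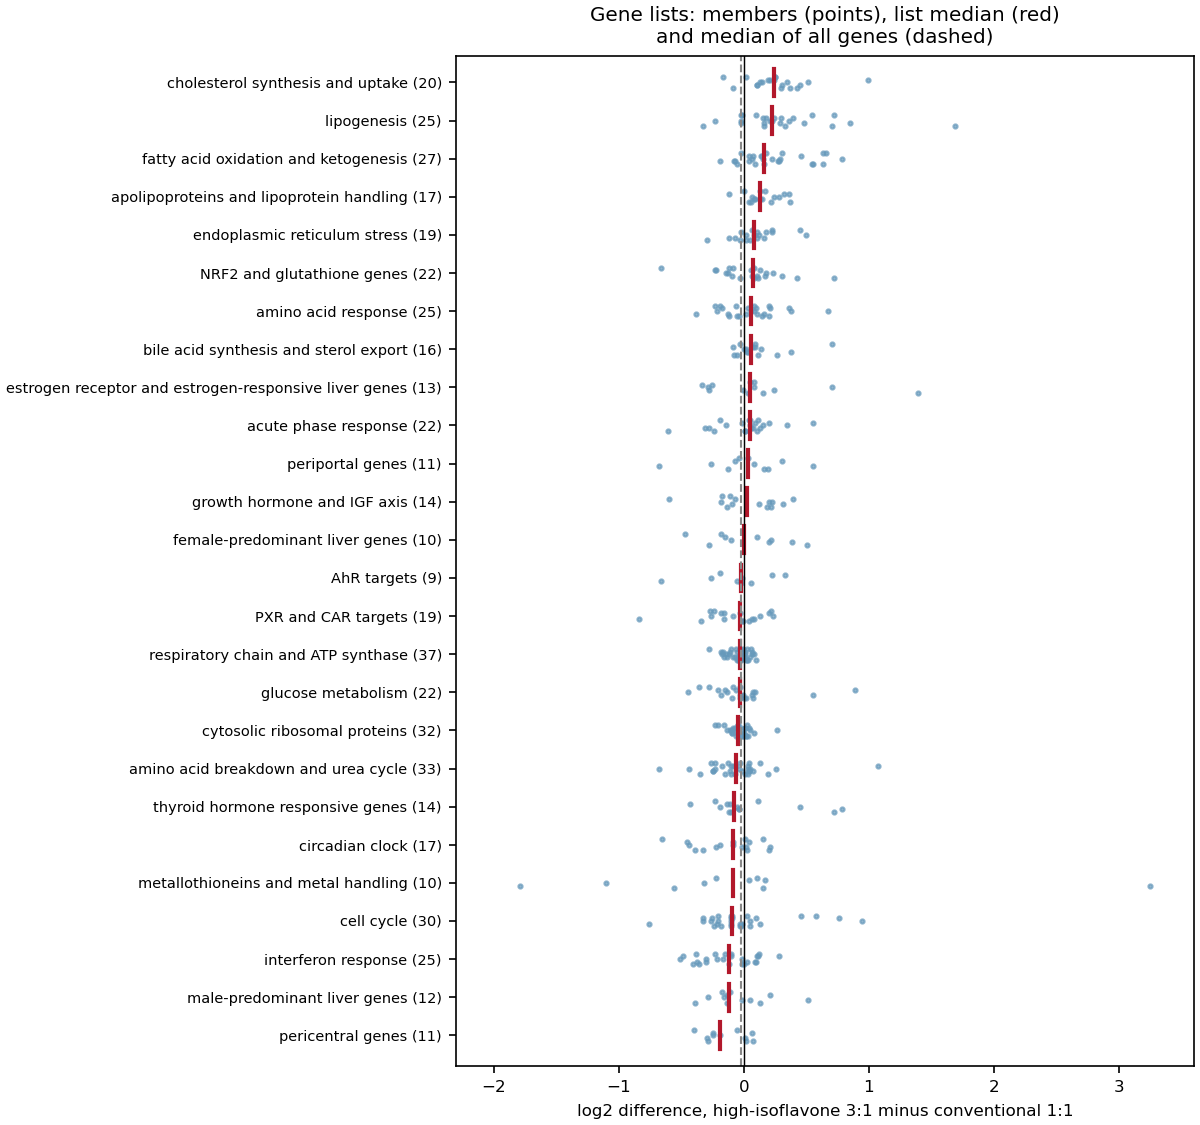
Log2 difference (3:1 minus conventional, x axis) of each measured gene in 26 lists (rows, with the number measured); points are genes, red bars list medians and the dashed line the median of all genes at -0.03. Cholesterol and lipogenesis lists have medians of 0.24 and 0.23, and single genes of metal handling, Hamp and Mt2A, lie at 3.25 and -1.79.

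Of 25 measured lipogenesis genes, 19 lay above 0 and 6 had an unadjusted p under 0.05, all 6 on the higher side. Over all genes, 5.07% were higher and 6.02% lower at that p. Fads2, the desaturase that begins the synthesis of long polyunsaturated fatty acids, had 6.17, 6.62, 6.76, 6.05 and 6.65 on the 3:1 diet and 5.76, 6.04, 5.05, 5.83 and 6.02 on the conventional diet. The groups did not overlap, and the difference was 0.71 (SE 0.206, 95% interval 0.28 to 1.14, adjusted p = 0.280). Without conventional replicate 3 it was 0.54. Casein rats averaged 7.13 ± 0.22 and 1:1 high-isoflavone rats 6.04 ± 0.463. Slc25a1, which exports citrate from mitochondria as the carbon source of fat synthesis, differed by 0.40 (SE 0.106, adjusted p = 0.259) with 5.68 to 6.20 in 3:1 rats and 5.41 to 5.84 in conventional rats. Picked for their size after their values were seen, Elovl2, an elongase of polyunsaturated fatty acids, differed by 0.85 (adjusted p = 0.283) and Fads1, the second desaturase, by 0.54 (adjusted p = 0.292).

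The levels of Fasn, Pnpla3, Elovl6 and Pklr overlapped between the diets. Fasn, fatty acid synthase, had 6.77, 6.63, 7.23, 4.34 and 6.76 on the 3:1 diet and 7.33, 6.23, 4.34, 6.44 and 5.88 on the conventional diet. Each diet held 1 low rat, and the difference of 0.30 had a 95% interval of -0.80 to 1.40 (adjusted p = 0.865). It was 0.80 without 3:1 replicate 4 and -0.13 without conventional replicate 3. Pnpla3, a lipid droplet protein, had 6.44, 7.06, 7.74, 2.86 and 6.77 against 5.19, 6.07, 0.84, 6.31 and 4.01 in conventional rats. Its difference of 1.69 (SE 0.944, adjusted p = 0.524) was 2.52 without 3:1 replicate 4 and 0.78 without conventional replicate 3. The same 2 rats were the lowest of their diets for Elovl6, the elongase acting after Fasn, with 1.59 and 1.49. Its difference was 0.24 (adjusted p = 0.885), 0.60 without 3:1 replicate 4 and -0.08 without conventional replicate 3. Pklr, liver pyruvate kinase, differed by 0.07 (95% interval -0.25 to 0.39), by 0.20 without 3:1 replicate 4 and by -0.04 without conventional replicate 3. Its second probe set gave -0.16.

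As a mean over the 25 lipogenesis genes, the 3:1 rats stood at 5.90, 5.996, 6.25, 5.16 and 5.96 log2 units, the conventional rats at 5.82, 5.83, 4.83, 5.73 and 5.57. Conventional replicate 3 and 3:1 replicate 4 were the lowest of their diets. Without 3:1 replicate 4 the list median was 0.36 with 24 of 25 members above 0, and without conventional replicate 3 it was 0.12 with 14 of 25 above 0. The number of members above 0 therefore rested on conventional replicate 3. Casein rats averaged 6.48 ± 0.245 and 1:1 high-isoflavone rats 5.48 ± 0.299. For 18 of the 25 genes (72.0%), the 3:1 mean lay above the conventional and below the casein mean, an order found in 16.3% of all genes. This order needs a 3:1 mean above the conventional mean, which only 14 of 25 genes had without conventional replicate 3.

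Of 20 genes of cholesterol synthesis and uptake, 18 lay above 0 and 4 had an unadjusted p under 0.05, each higher on the 3:1 diet. Of all genes 5.07% were higher at that p. Sc5d, a late enzyme of the sterol pathway, had 5.53, 5.69, 5.92, 5.52 and 6.10 on the 3:1 diet and 5.42, 5.61, 5.27, 5.46 and 5.51 on the conventional diet. The groups overlapped, and the difference was 0.30 (SE 0.121, adjusted p = 0.385), with 0.36 and 0.23 from its other probe sets. Dhcr7, which makes cholesterol from its last precursor, differed by 0.45 (SE 0.19, adjusted p = 0.395), and by 0.25 without conventional replicate 3. Pmvk, phosphomevalonate kinase, had 4.82, 4.76, 5.00, 3.98 and 4.76 against 4.35, 4.44, 3.94, 4.40 and 4.46 in conventional rats, a difference of 0.35 (adjusted p = 0.471). Outside 3:1 replicate 4 every 3:1 rat was above every conventional rat. Insig1, the SREBP retention protein, picked after its value was seen, had the largest difference of the list at 0.99 (95% interval -0.04 to 2.02, adjusted p = 0.479), and 0.60 without conventional replicate 3.

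The mean over the 20 cholesterol genes was 4.87, 4.56, 4.61, 4.31 and 4.89 in 3:1 rats and 4.33, 4.53, 4.23, 4.45 and 4.43 in conventional rats. All 3:1 rats but replicate 4 lay above all conventional rats. The list median ranged from 0.13 to 0.33, with 17 to 19 genes above 0, when any 1 of these 10 arrays was left out. The 1:1 high-isoflavone rats averaged 4.29 ± 0.253 and the casein rats 4.92 ± 0.157. For 15 of 20 genes the 3:1 mean lay between the conventional and the casein mean, in that order.

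**Figure D4:**
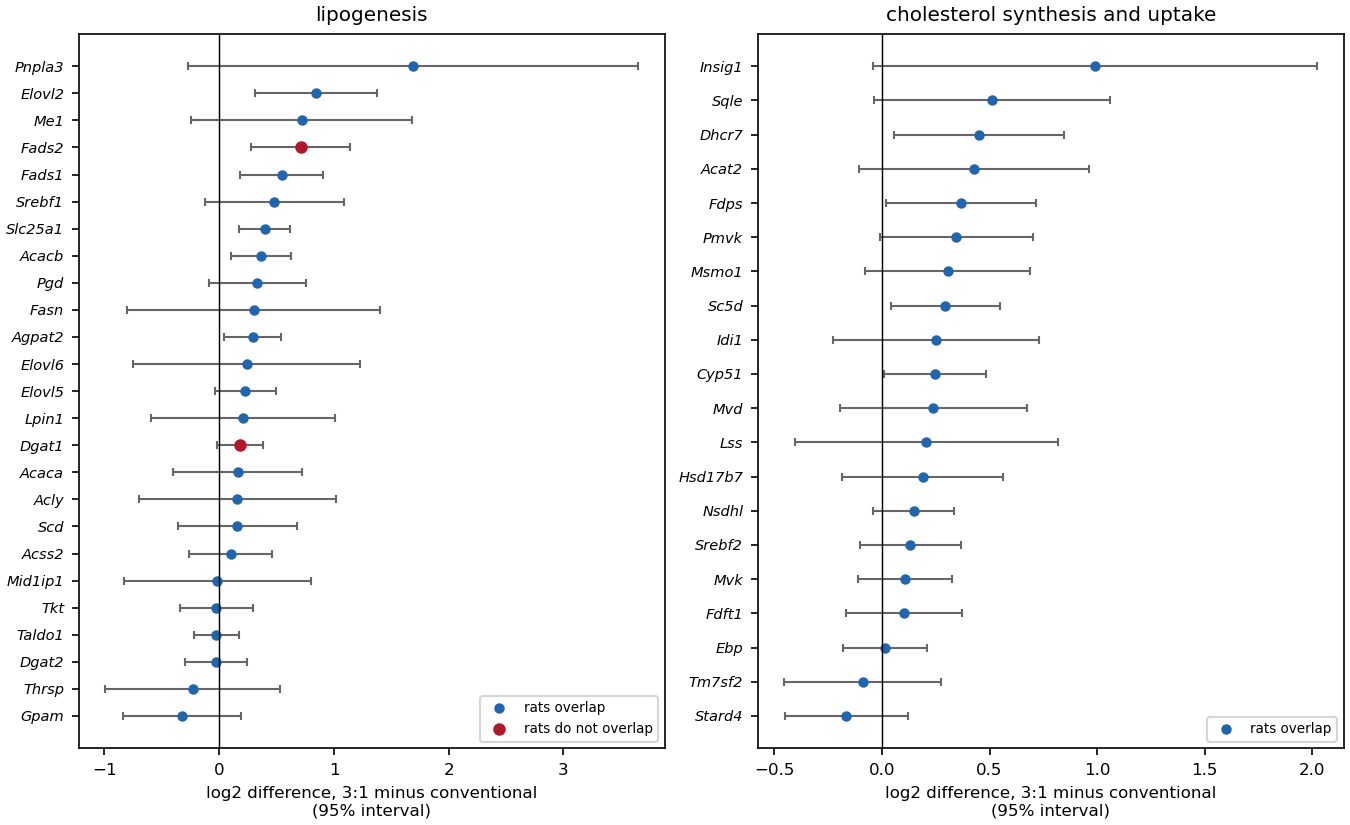
Log2 difference (3:1 minus conventional, x axis) with 95% interval for each measured gene of lipogenesis and of cholesterol synthesis and uptake; red marks genes whose rats do not overlap. Fads2 at 0.71 and Dgat1 at 0.18 are the 2 such genes, and 1.17% of all genes were higher without overlap. Above 0 lie 19 of 25 and 18 of 20 genes, against 44.0% of all genes. Without conventional replicate 3, 14 of 25 lipogenesis genes lie above 0.

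Fatty acid oxidation and ketogenesis gave 22 of 27 genes above 0, with 8 at an unadjusted p under 0.05 on the higher side and 1 on the lower. The shares of all genes at that p were 5.07% higher and 6.02% lower. Cyp4a1, the PPARα target that hydroxylates the end of fatty acids, had 6.65, 7.08, 6.92, 6.38 and 6.95 on the 3:1 diet and 5.97, 6.52, 6.04, 6.04 and 6.25 on the conventional diet. Its difference was 0.63 (SE 0.185, adjusted p = 0.281). Ehhadh, a peroxisomal oxidation enzyme, differed by 0.46 (adjusted p = 0.323), and by 0.30 without conventional replicate 3. The 1 gene on the lower side, Echs1, differed by -0.19 (adjusted p = 0.434). The list ordered the diets unlike the synthesis lists: means were 5.86 ± 0.121 on the 3:1 diet, 5.63 ± 0.0887 on the conventional diet, 5.92 ± 0.148 on the 1:1 high-isoflavone diet and 5.89 ± 0.211 on casein. In median over the list, the 1:1 high-isoflavone diet was 0.18 above conventional, and the 3:1 diet was -0.06 relative to the 1:1 high-isoflavone diet. For lipogenesis the same medians were -0.05 and 0.20, and for cholesterol genes -0.09 and 0.30. These contrasts share arrays with the comparison of the 3:1 and conventional diets, and the difference between the lists was not tested.

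**Figure D5:**
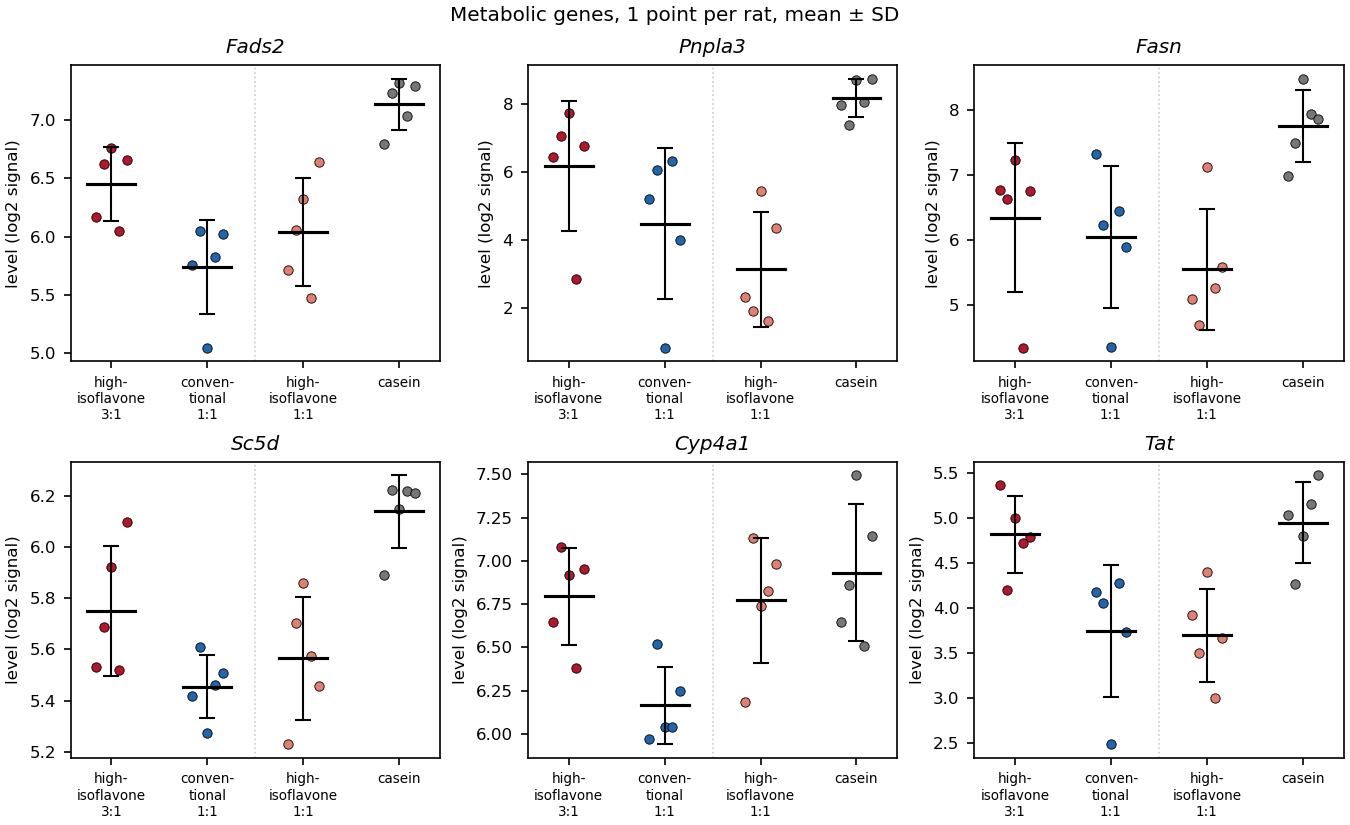
Level in log2 signal of 6 metabolic genes in each of 20 rats, by diet; points are rats, horizontal bars means and whiskers SD (n = 5 per diet). Fads2 levels of the 3:1 and the conventional rats do not overlap, but only by a narrow gap. The Fads2 difference of 0.71 (limma, adjusted p = 0.280) is 0.54 without conventional replicate 3. In each of these diets 1 low rat, at 4.34 in both, widens Fasn.

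Lipoprotein and bile acid genes gave smaller differences. Of 17 apolipoprotein and lipoprotein genes 15 lay above 0, with Lipc, hepatic lipase, at 0.32 (SE 0.109, adjusted p = 0.309) and Mttp, which loads lipid onto apolipoprotein B, at 0.28 (SE 0.112, adjusted p = 0.384). Nr1h3, the oxysterol receptor LXRα, differed by 0.26 (SE 0.0837, adjusted p = 0.284), with 5.42 to 5.69 in 3:1 rats and 5.15 to 5.44 in conventional rats. Cyp7a1, the rate-limiting enzyme of bile acid synthesis, differed by -0.08 with an interval of -1.05 to 0.89. Its direction turned without conventional replicate 3, to 0.37, and without 3:1 replicate 4, to 0.0270. Cyp8b1, which sets the cholic acid share, differed by 0.38 (adjusted p = 0.586).

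Amino acid genes gave single large values inside lists with medians near that of all genes. Tat, which starts tyrosine breakdown and responds to glucocorticoids, had 5.37, 4.20, 5.00, 4.72 and 4.79 on the 3:1 diet and 4.18, 4.05, 2.48, 4.28 and 3.73 on the conventional diet. Its difference was 1.07 (SE 0.305, adjusted p = 0.275), and 0.76 without conventional replicate 3. The 33 genes of amino acid breakdown and urea synthesis had a median of -0.06, with 13 above 0. In the amino acid response list, Atf5, a stress-induced transcription factor, had 6.96, 6.87, 6.98, 6.77 and 7.07 against 6.39, 6.70, 6.54, 6.40 and 6.74 in conventional rats, without overlap, and differed by 0.37 (SE 0.0876, adjusted p = 0.197). Sesn2, a sensor of leucine, did not overlap either and differed by 0.68 (SE 0.175, adjusted p = 0.236), with 0.20 from its dimmer probe set. The list as a whole had 15 of 25 genes above 0, and 10 of 25 without conventional replicate 3. The median of the endoplasmic reticulum stress list was 0.08 with 14 of 19 above 0, led by Herpud1 at 0.49 (adjusted p = 0.283) and Hyou1 at 0.45 (adjusted p = 0.329). Without 3:1 replicate 4 that median was 0.05, with 13 of 19 above 0. Pck1, the entry enzyme of gluconeogenesis, differed by 0.56 (adjusted p = 0.385) while 15 of 22 glucose genes lay below 0, and 11 of 22 without 3:1 replicate 4.

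The largest single differences lay in metal handling and rested on spread among conventional rats. Hamp, the iron hormone hepcidin, had 7.95, 8.09, 6.75, 7.85 and 7.35 on the 3:1 diet and 6.71, 5.28, 0.91, 1.29 and 7.55 on the conventional diet. Conventional replicates 3 and 4 lay far below the other 8 rats. The difference was 3.25 (SE 0.897, adjusted p = 0.268), and 2.39 without replicate 3. Tfrc, the transferrin receptor, named after its value was seen, differed by -1.10 (adjusted p = 0.318), and the same 2 conventional rats were its highest, at 6.37 and 6.09, against at most 4.59 in any other rat of the 2 diets. Mt2A, a metallothionein that binds zinc, had 2.68, 3.58, 2.91, 4.14 and 3.15 against 3.61, 4.74, 7.78, 4.39 and 4.91 in conventional rats, a difference of -1.79 (SE 0.527, adjusted p = 0.282), and -1.12 without replicate 3. Mt1 differed by -0.56 (adjusted p = 0.456). Of the 10 measured genes of this list 5 lay above and 5 below 0.

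Genes that read out nuclear receptors, hormones and estrogen action showed no called difference. Cyp17a1, the androgen-making hydroxylase, had 3.49, 3.46, 3.81, 3.16 and 3.53 on the 3:1 diet and 2.51, 3.23, 0.9957, 1.21 and 2.53 on the conventional diet, a difference of 1.40 (SE 0.34, adjusted p = 0.204). Tff3, an estrogen-responsive secreted peptide, differed by -0.33 (adjusted p = 0.284). The estrogen list held 8 of 13 genes above 0 with a median of 0.05, and Esr1 had no value here. Without conventional replicate 3 that median was 0.02, with 7 of 13 above 0. Nr1i3, the xenobiotic receptor CAR, differed by -0.84 (SE 0.282, adjusted p = 0.303), with means of 1.80 ± 0.535 in 3:1 rats and 2.64 ± 0.686 in conventional rats, 2.83 ± 0.19 on the 1:1 high-isoflavone diet and 1.62 ± 0.442 on casein. The PXR and CAR target list had 7 of 19 genes above 0, and Cyp3a23-3a1, a main PXR target, differed by -0.26 (95% interval -0.60 to 0.08). Gclm of glutathione synthesis differed by -0.10, by -0.16 without conventional replicate 3 and by -0.19 without 3:1 replicate 4. The male-predominant Cyp2c13 differed by 0.05, by 0.11 and -0.02 with the same omissions. Signs of both turned in some settings.

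None of the clock, acute phase, cell cycle or interferon genes passed the test. Tef, a clock output factor, was lower in every 3:1 rat (3.67 to 4.31) than in any conventional rat (4.36 to 4.71), by -0.44 (SE 0.141, adjusted p = 0.292). Its other probe sets gave -0.36 and -0.09. The acute phase gene Crp differed by 0.56 (SE 0.172, adjusted p = 0.283), and by 0.39 without 3:1 replicate 4, the highest of its diet at 9.25. Hpx, which carries heme in plasma, differed by 0.13 (SE 0.0511, adjusted p = 0.378), and its narrow levels of 9.71 to 9.80 and 9.53 to 9.70 did not overlap. The cell cycle genes Ccne2 and Plk1 differed by -0.76 (adjusted p = 0.292) and -0.33 (adjusted p = 0.377) without overlap, in a list with a median of -0.10 and 9 of 30 genes above 0. Without conventional replicate 4 the median of this list was 0.07, with 18 of 30 above 0. It was -0.06 without conventional replicate 3 and -0.04 without 3:1 replicate 4. Interferon genes had 8 of 25 above 0 and a median of -0.12, led by Rsad2 at -0.51 (adjusted p = 0.461). Without conventional replicate 3 Rsad2 differed by -0.24. Over omissions of 1 array the list median lay between -0.25 (without conventional replicate 1) and -0.05 (without conventional replicate 5), with 4 and 11 genes above 0.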

How the data were processed

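Liver RNA of 20 rats was measured on 1 Affymetrix 3′ array each. The authors deposited 1 table of normalized values; per the labels they were normalized with the SuperNORM data service, while the summary of probes into probe sets is not stated there. The deposited scale was read as log10 signal, since spike-ins of known relative amount gave slopes of 0.866 ± 0.0224 and 0.997 ± 0.0242 per log10 unit for the older and the newer 9 probe sets (SD). They were multiplied by 3.3219 to log2. Of 31099 probe sets, 57 controls and 3342 without values (2 in both) were left out. The platform annotation gave 1 symbol to 19157 probe sets, several to 394 and none to 8151. A gene was read from its probe set with the highest mean. Array titles and diet codes were paired through their wording.

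Differences were tested with limma 3.58.1 (R 4.3.3): 1 mean per diet over all 20 arrays, eBayes with trend, two-sided, Benjamini-Hochberg over 27702 probe sets, called at an adjusted p under 0.05. Array measures had exact permutation tests. Named genes were the 12 leading genes per direction (called and not overlapping, otherwise smallest p), 2 per list and a fixed set. Others are marked, except Echs1, Mt1, Dgat1 and albumin, which also lie outside this rule. Of 672 list symbols, 553 matched. The 26 lists and the tests were chosen with earlier results of these data known. The test was checked on simulated data. The 29 alternatives covered the arrays fitted, scaling, dim probe sets, the variance model, a replicate block and arrays left out. The number of arrays limits the precision.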

Additional observations from a re-analysis of the deposited data

Results flagged for a closer look

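In 12 of 76 groups of 5 rats tested, 1 array lay far from the other 4, by a gap over 0.71 of the group's range. Chance alone gives this in about 5% of independent groups. The groups here share the same rats and many genes were picked by their p, so that rate cannot be set against this count. Fads2 was 5.05 in conventional replicate 3, against 5.76 to 6.04 in the other conventional rats. Replicate 4 of the 3:1 diet was low in Fasn (4.34, others 6.63 to 7.23), Pnpla3 (2.86, others 6.44 to 7.74) and Pmvk (3.98, others 4.76 to 5.00). Pmvk was also low in conventional replicate 3, at 3.94, against 4.35 to 4.46. Pitpnb was low in both replicates 4, at 3.64 on the 3:1 diet (others 3.93 to 3.97) and 3.15 on the conventional diet (others 3.44 to 3.49). Ppp1r11 was high in 3:1 replicate 1, at 3.90, and Ankib1 in 3:1 replicate 3, at 4.85. Lrp10 was low in conventional replicate 2, at 3.56. On the array measures, 3:1 replicate 1 had the highest actin 3′ to 5′ ratio, 2.13 against 1.35 to 1.56 in the others, and the highest lowest value, 0.142 log10 units against -0.402 to -0.265.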

How the results depend on the processing

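The count of 1 called probe set became 0 in the fit of the 10 compared arrays, 0 without the variance trend, 0 with the replicate block (Cox7b2 at an adjusted p of 0.0802) and 0 without number 1 of all diets, 2 without the 2 arrays with a higher floor, 9 after quantile normalization and 13 after centring and scaling. Leaving out 1 array gave 0 to 2 calls. Without conventional replicate 1 the 1 call was Ppp2r1a, higher on the 3:1 diet, and Cox7b2 was not called. The numbers 1 to 5 in the labels were not taken as pairs, since same-numbered arrays correlated at -0.0166 to 0.217, over 0.1 in 3 of 5 pairs and not in all. As a hint from the data, 4 of 5 3:1 and 3 of 5 conventional arrays correlated best with their own number. The genes whose differences turned sign had not passed the test as deposited, and their reported differences lay between -0.10 (Gclm) and 0.30 (Fasn). Over omissions of 1 array, Fasn ranged from -0.126 (without conventional replicate 3) to 0.802, Elovl6 from -0.0824 (same omission; -0.0531 without conventional replicate 5) to 0.595, and Pklr from -0.0489 (without 3:1 replicate 3; -0.0426 without conventional replicate 3) to 0.195. Cyp7a1 ranged from -0.301 to 0.366 (without conventional replicate 3), and was 0.00889 and 0.0270 without 3:1 replicates 3 and 4. Gclm ranged from -0.189 to 0.0135 (without conventional replicate 2) and was 0.0109 without number 1 of all diets, and Cyp2c13 ranged from -0.0772 (same omission; -0.0152 without 3:1 replicate 4) to 0.112. The difference in actin 3 prime to 5 prime ratio ranged from -0.125 (without 3:1 replicate 1) to 0.0719, turning sign also without conventional replicates 1 and 2, at -0.0648 and -0.0147. Of 82 named genes, 10 that did not pass as deposited were called in some alternative, and 6 changed sign in any. The causes were not tested.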
